A study of Homo sapiens with 6 samples.

Results

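DST and MACF1 are the spectraplakin genes, and their crosslink events were taken from all 6 libraries by strand and position on hg19. DST was read on the minus strand of chr6:56322785-56819426, an interval of 496.642 kb, and MACF1 on the plus strand of chr1:39546988-39952810, an interval of 405.823 kb. Together the 2 genes hold 20401 of the 8284652 deposited lines, each a crosslink position in one library, and 30654 of 12525618 crosslink events. DST accounts for 14356 of these lines and 22403 events, and MACF1 for 6045 lines and 8251 events. Both genes were picked with earlier crosslink results from these same libraries in view, so their total levels are given as a description with no test.

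The series maps RNA contacts of QKI-5 by iCLIP, a method in which ultraviolet light joins a protein to the RNA it touches and the cDNA end marks the joined base. All libraries came from BEAS2B, an established line of bronchial epithelial cells, grown and irradiated in the same way. The 3 QKI-5 iCLIP libraries were made with an anti-QKI5 antibody and the 3 control libraries are labelled as having none, although the shared protocol text names the antibody for both. The labels give no drug treatment or genetic change for either group, and leave unsaid whether replicates came from different cultures, so the spread between them may be technical. RNA was fragmented with RNase A at a high or a low dilution, and the labels do not tie a dilution to a library.

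Spectraplakins are giant proteins that tie actin filaments to microtubules. DST, also called dystonin or BPAG1, has several forms, and its epithelial form anchors keratin filaments at hemidesmosomes, the junctions that hold epithelial cells to the basement membrane. MACF1, also called ACF7, guides microtubule growth along actin towards focal adhesions in migrating cells. QKI-5 is the nuclear form of Quaking, an RNA-binding protein of the STAR family that regulates splicing. Both genes are long and are transcribed from several start sites.

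QKI-5 iCLIP libraries held 7283982, 2143279 and 2889146 events in replicates 1 to 3, and the controls held 137926, 41475 and 29810. Levels are given as events per 1000000 events of the library (EPM). A count of 3 events, taken as the limit below which a value of 0 cannot be told from a low level, equals 0.412 to 1.40 EPM in single QKI-5 iCLIP libraries and 21.8 to 100.6 EPM in single controls. The shallow controls therefore limit nearly every comparison with them. Intervals are 95% exact intervals and cover counting error only, since it is unknown here whether PCR copies were merged.

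DST carried 13925, 3840 and 4372 events in QKI-5 iCLIP replicates 1, 2 and 3, against 173, 55 and 38 events in the controls. As levels these were 1912, 1792 and 1513 EPM in QKI-5 iCLIP and 1254, 1326 and 1275 EPM in control. Counted as events, the lowest QKI-5 iCLIP library, replicate 3, lay above the highest control. However, the counting intervals of control replicates 2 and 3, 999 to 1726 and 902 to 1749 EPM, included its level. How often other genes are separated in this way was not counted. The mean was 1739 ± 204 EPM in QKI-5 iCLIP and 1285 ± 37.0 EPM in control (SD, n = 3 each), 1.35-fold or 0.44 on the log2 scale. Over pooled events the ratio was 1.41, with an interval of 1.25 to 1.60.

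MACF1 carried 4836, 1354 and 1921 events in QKI-5 iCLIP replicates 1, 2 and 3, against 96, 27 and 17 in the controls. These were 664, 632 and 665 EPM in QKI-5 iCLIP and 696, 651 and 570 EPM in control. The control values enclosed the QKI-5 iCLIP values. The mean was 654 ± 18.9 EPM in QKI-5 iCLIP and 639 ± 63.7 EPM in control (SD, n = 3 each), a log2 ratio of 0.03. The pooled ratio was 0.984 with an interval of 0.833 to 1.17. On distinct crosslink positions in place of events the log2 ratio was 0.12 for DST and -0.12 for MACF1. The sign for MACF1 thus depended on how repeated events were counted. So did the separation of DST, since QKI-5 iCLIP replicate 3 then fell below every control. Bases with more than 1 event held 51.1%, 61.0% and 67.4% of DST events in QKI-5 iCLIP replicates 1 to 3. In control replicates 1 to 3 they held 4.62%, 47.3% and 36.8%.

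**Figure D1:**
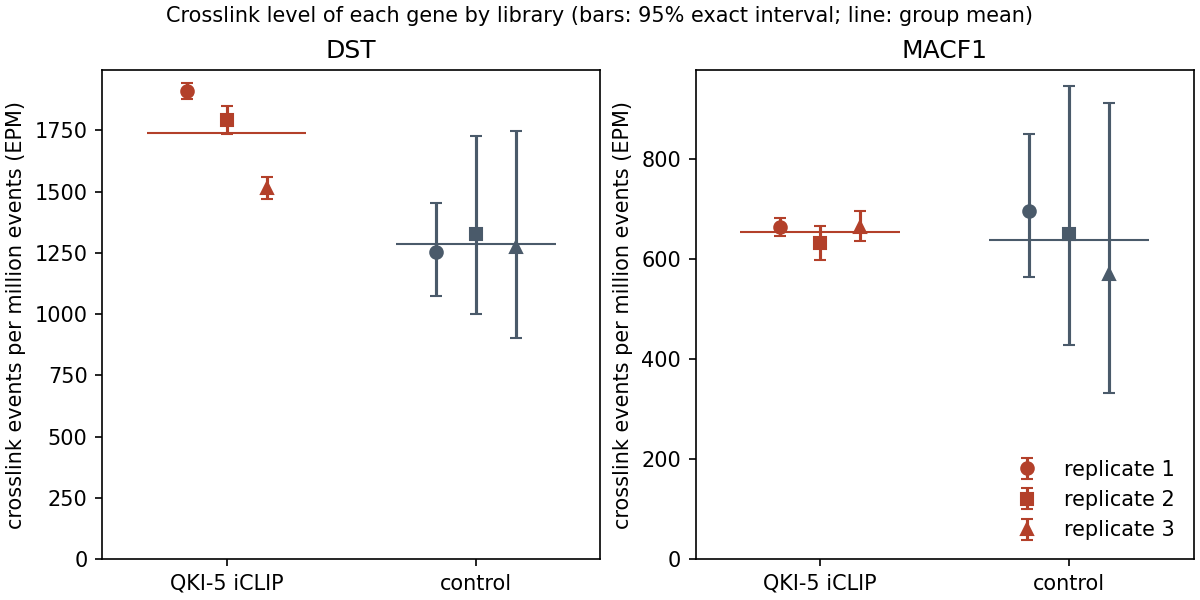
Crosslink level of DST (left) and MACF1 (right) in EPM for each library, QKI-5 iCLIP beside control, with 95% exact counting intervals as bars and the group mean as a line. The DST values of QKI-5 iCLIP lie between 1513 and 1912 EPM, above the controls at 1254 to 1326 EPM, and the MACF1 groups overlap.

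Scaling moved these ratios more than replicates did. EPM divides by library totals, whereas TMM factors, which edgeR derives from all tested windows, raised the log2 ratio of DST to 1.17 and that of MACF1 to 0.71. Over all tested 10 kb windows, the median log2 fold change was 0.78 under TMM and 0.22 under scaling by library totals.

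Within a library the ratio of DST to MACF1 needs no scaling. Per kb, DST carried 3.50 ± 0.412 EPM in QKI-5 iCLIP and 2.59 ± 0.0745 EPM in control, and MACF1 carried 1.61 ± 0.0465 EPM in QKI-5 iCLIP and 1.57 ± 0.157 EPM in control. The density ratio of DST over MACF1 was 2.35, 2.32 and 1.86 in QKI-5 iCLIP replicates 1 to 3, against 1.47, 1.66 and 1.83 in the controls. DST was the denser gene in all 6 libraries. The mean log2 density ratio was 1.11 ± 0.19 in QKI-5 iCLIP and 0.72 ± 0.16 in control, a difference of 0.39, although QKI-5 iCLIP replicate 3 and control replicate 3 nearly met. On distinct positions the difference was 0.22, so its size depended on how repeated events were counted.

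Few events lay on the strand opposite to each gene. Opposite to DST there were 13, 9 and 6 events in QKI-5 iCLIP and 0 in each control, and opposite to MACF1 there were 5, 2 and 2 in QKI-5 iCLIP and 1, 0 and 0 in control. DST-AS1, an antisense long non-coding RNA that RefSeq places within DST, lies opposite to the strand counted here. RefSeq also lists the pseudogenes RPL17P26 and RNU6-626P within DST, and RNU6-608P, RNA5SP44, HSPE1P8 and the long non-coding RNA LOC124904101 within MACF1. Their events were not separated from those of the spectraplakins.

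Coverage was broad in both genes. Of 497 bins of 1 kb in DST, 481 held an event in at least 1 QKI-5 iCLIP library, or 96.8%, against 35.8% of bins with a control event. In MACF1 the shares were 97.3% of 406 bins in QKI-5 iCLIP and 23.4% in control. The share of bins with an event in every QKI-5 iCLIP library was 77.5% for DST and 64.8% for MACF1. Depth differs between the groups, so the difference in covered bins was not compared further. The median bin held 1.92 EPM in DST and 1.11 EPM in MACF1, and the highest bin held 74.6 EPM and 22.3 EPM in QKI-5 iCLIP.

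The first 100 kb of DST, at its 5′ end, were sparse. This stretch is 20.1% of the interval and held 2.57%, 3.65% and 3.87% of the gene's events in QKI-5 iCLIP, against 5.20%, 0% and 0% in control. The 0 of 55 and 0 of 38 events in control replicates 2 and 3 allow shares of up to 5.45% and 7.89%. Downstream of it, the density in QKI-5 iCLIP was 9.55, 6.66 and 6.27 times that of the first 100 kb in replicates 1 to 3, a mean of 7.50 ± 1.79. Pooled controls had 9 of 266 events in this stretch, or 3.38% (1.56% to 6.33%), so the low start was shared by both groups.

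The density of DST rose after about 100 kb, with gaps. Of the 1 kb bins between 95 and 102 kb, the one from 97 kb held 16, 3 and 13 events in QKI-5 iCLIP replicates 1 to 3, and the others held at most 2 in a library. In the 1 kb bin from 102 kb the QKI-5 iCLIP libraries held 10, 4 and 18 events, in the next 45, 10 and 13, and in the one from 104 kb 36, 21 and 7. The bin from 105 kb held 2 in each, and the 4 bins from 106 kb on held 3 to 28 in a library. RefSeq lists 3 transcription start groups for DST on GRCh38.p14, and the second lies 102.925 kb downstream of the first. The third lies 311.941 kb downstream. Distances within the gene were compared and no coordinate was carried between builds. The RefSeq gene is 496835 nt long, 193 nt longer than the hg19 interval. Whether the rise follows from transcripts that start there was not tested.

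The RefSeq sequences around the first and the second DST start are shown because the rise lies near the second. Both are on the minus strand of GRCh38.p14, chr6:56954781-56955080 for start 1 and chr6:56851856-56852155 for start 2, printed 5′ to 3′ with the 250 bases before the start in lower case and the 50 bases from the start onward in capitals.
DST start 1: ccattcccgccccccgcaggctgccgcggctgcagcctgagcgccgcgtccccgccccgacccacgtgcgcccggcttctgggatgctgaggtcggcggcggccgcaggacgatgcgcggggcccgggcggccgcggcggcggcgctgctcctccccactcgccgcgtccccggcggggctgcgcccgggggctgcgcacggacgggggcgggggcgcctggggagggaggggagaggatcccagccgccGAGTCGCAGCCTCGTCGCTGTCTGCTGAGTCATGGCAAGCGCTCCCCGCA
DST start 2: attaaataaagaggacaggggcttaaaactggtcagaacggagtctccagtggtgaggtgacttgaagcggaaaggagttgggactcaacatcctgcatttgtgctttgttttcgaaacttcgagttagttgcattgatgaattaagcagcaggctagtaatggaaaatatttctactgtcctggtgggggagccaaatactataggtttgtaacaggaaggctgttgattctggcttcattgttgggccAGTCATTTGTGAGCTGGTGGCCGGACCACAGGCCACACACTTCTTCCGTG
G and C make up 80.0% of the first sequence and 46.3% of the second.

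MACF1 also began sparsely, over a shorter distance. Its first 20 kb are 4.93% of the interval and held 11, 2 and 13 events in QKI-5 iCLIP, or 0.227%, 0.148% and 0.677% of the gene's events, against 0 of 140 events in pooled controls, which allows up to 2.14%. In the 1 kb bin from 24 kb the QKI-5 iCLIP libraries held 6, 8 and 5 events, and in the bin from 29 kb 19, 22 and 19. RefSeq lists MACF1 starts 120.528 and 324.906 kb downstream of the first, and neither lies near this rise. The RefSeq gene is 402972 nt long, 2851 nt shorter than the hg19 interval.

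Further downstream the genes differed in where events gathered. In DST the mean shares of QKI-5 iCLIP events in successive 100 kb segments were 3.36%, 22.9%, 18.7% and 28.1%, with 27.0% in the remaining 96.6 kb. In MACF1 they were 27.5%, 15.1%, 22.3% and 33.0%, with 2.04% in the last 5.82 kb. DST thus leaned to its 3′ end and MACF1 to both ends. The 5′ 50% of DST held 31.2 ± 1.58% of events in QKI-5 iCLIP and 30.3 ± 12.6% in control (SD, n = 3 each; two-sided exact permutation p = 1). The 5′ 50% of MACF1 held 43.0 ± 2.84% in QKI-5 iCLIP and 42.1 ± 16.5% in control (exact permutation p = 0.9). The Benjamini-Hochberg adjusted p over these 2 tests was 1 for both, and the smallest p that 3 libraries against 3 can give is 0.1. Neither gene showed a shift between groups larger than the spread of the controls, which rest on few events.

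**Figure D2:**
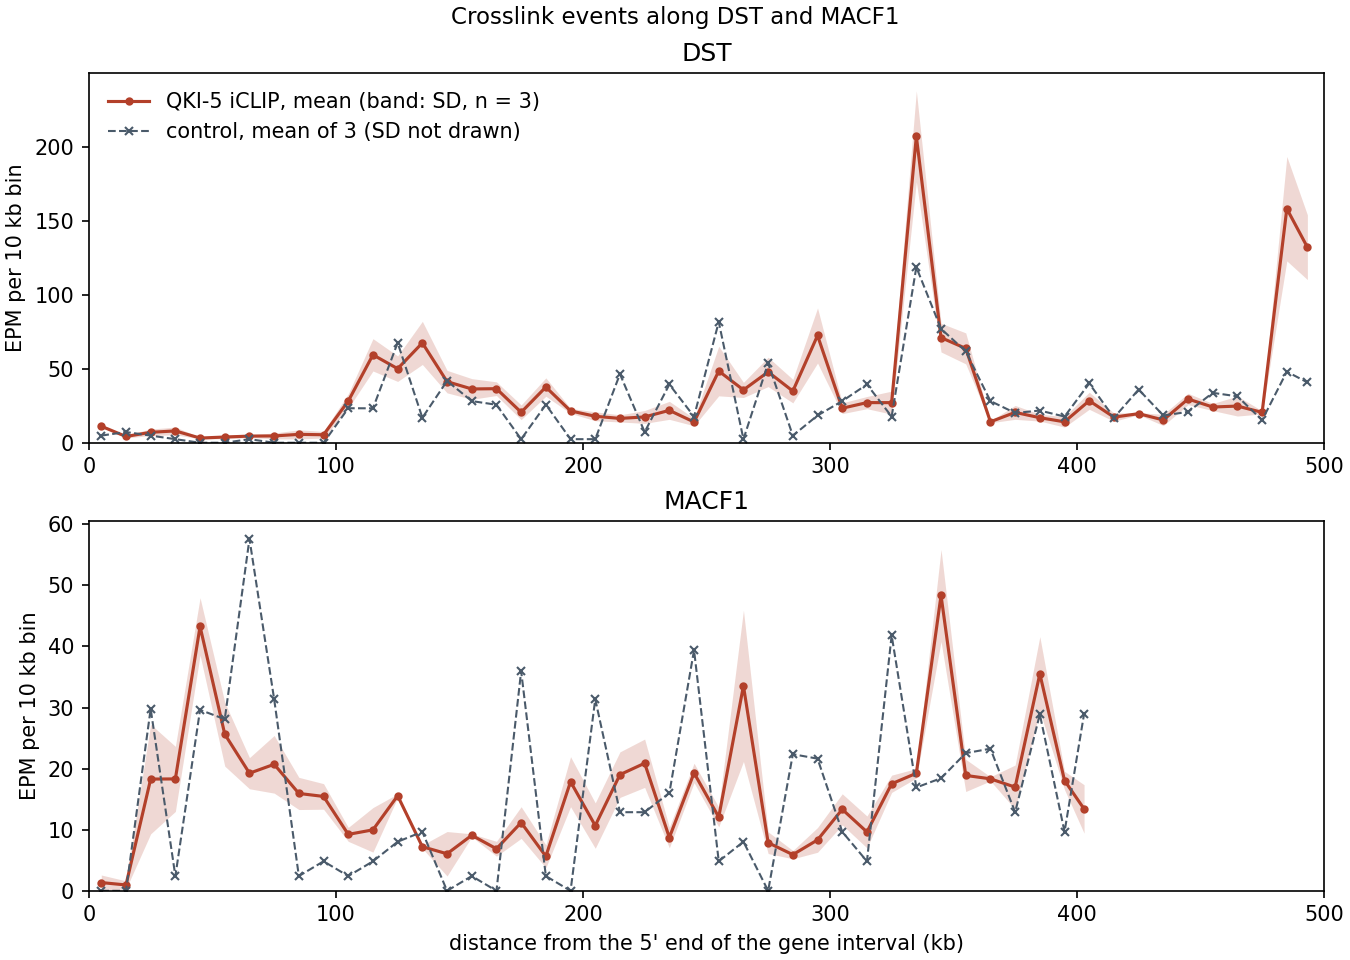
Mean EPM per 10 kb bin along DST (top) and MACF1 (bottom) against distance from the 5′ end in kb, with the SD of the 3 QKI-5 iCLIP libraries as a band and the mean of 3 controls dashed. The last bin of each gene is shorter than 10 kb. DST is low over its first 100 kb and peaks at 207 EPM in the bin from 330 kb, where the controls average 119 EPM.

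The strongest DST bin of 10 kb ran from 330 to 340 kb and held 214, 174 and 234 EPM in QKI-5 iCLIP replicates 1 to 3, a mean of 207 ± 30.7 EPM, against 119 ± 66.1 EPM in control. It held 12.1% of the gene's QKI-5 iCLIP events. The bin from 480 kb came next with 158 ± 35.3 EPM in QKI-5 iCLIP and 48.0 ± 50.5 EPM in control, and the stretch that remains at the 3′ end held 132 ± 21.9 EPM in QKI-5 iCLIP and 40.8 ± 53.0 EPM in control. At 1 kb resolution the highest DST bins in QKI-5 iCLIP began at 332 kb with 74.6 ± 15.9 EPM, 488 kb with 68.8 ± 24.4 EPM and 331 kb with 57.6 ± 7.53 EPM. The DST maxima thus formed a cluster near 331 to 333 kb and another close to the 3′ end.

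MACF1 had lower and more scattered maxima. Its strongest 10 kb bin, from 340 kb, held 56.4, 41.5 and 47.1 EPM in QKI-5 iCLIP, a mean of 48.3 ± 7.53 EPM, against 18.4 ± 17.0 EPM in control. The bin from 40 kb held 43.3 ± 4.70 EPM in QKI-5 iCLIP and 29.6 ± 34.2 EPM in control. The strongest 1 kb bins in QKI-5 iCLIP began at 344 kb with 22.3 ± 5.32 EPM, 266 kb with 20.9 ± 9.13 EPM and 47 kb with 12.2 ± 0.884 EPM. The spread of the controls spanned the QKI-5 iCLIP mean at 40 kb.

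The profile along each gene was shared by QKI-5 iCLIP libraries. Across the 497 bins of DST, Pearson's r was 0.93 for replicates 1 and 2, 0.91 for 1 and 3 and 0.86 for 2 and 3, and between QKI-5 iCLIP and control libraries it ran from 0.10 to 0.38. Across the 406 bins of MACF1 it was 0.76, 0.85 and 0.70 for the same pairs, and -0.01 to 0.16 between QKI-5 iCLIP and control. Between control libraries it ran from -0.003 to 0.11 in DST and from 0.01 to 0.14 in MACF1, so controls were also unlike each other. These correlations are across bins of one gene, which are not independent replicates, and the low control counts bound them. Single positions recurred less. Of the DST positions in replicate 2, 25.02% were also hit in replicate 1, the deepest library, and 10.2% in replicate 3. For MACF1 these shares were 13.8% and 6.47%. Of the DST positions in replicate 1, 6.60% were also hit in replicate 2.

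QKI-5 iCLIP events were gathered into few bins. The 5% of bins with most events were chosen in the other QKI-5 iCLIP libraries and measured in the remaining one. In DST these 25 bins held 37.1%, 35.0% and 35.7% of events in QKI-5 iCLIP replicates 1 to 3, against 10.4%, 20% and 31.6% in control, measured in the bins chosen from all 3 QKI-5 iCLIP libraries. The means were 35.9 ± 1.09% in QKI-5 iCLIP and 20.7 ± 10.6% in control. The bins were chosen where QKI-5 iCLIP was high and none were chosen from controls, so the choice itself favours QKI-5 iCLIP and the groups were not tested against each other.

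In MACF1 the corresponding 21 bins held 29.9%, 22.6% and 24.0% in QKI-5 iCLIP, against 4.17%, 7.41% and 5.88% in control. The means were 25.5 ± 3.88% in QKI-5 iCLIP and 5.82 ± 1.62% in control. The same choice of bins applies, and no test was made. The QKI-5 iCLIP shares show how far the strong bins of MACF1 recurred in a library that did not choose them.

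Genome-wide, counts in strand-specific 10 kb windows were tested with edgeR's quasi-likelihood test, which called 226 of 29960 tested windows higher (0.754%) and 32 lower (0.107%) at an adjusted p under 0.05. DST contains 48 whole windows, of which 39 passed the filter on low counts, and 2 were called higher and 0 lower. At an unadjusted p under 0.05 there were 10, all higher, beside 5522 of the 29960 tested windows in either direction. DESeq2 called 3 DST windows higher and 0 lower, beside 431 higher and 150 lower over all tested windows. MACF1 contains 40 whole windows, of which 28 passed, and 0 were called in either direction by edgeR or DESeq2, with 3 at an unadjusted p under 0.05 in edgeR, all higher. The median log2 fold change was 0.74 over the tested DST windows and 0.49 over those of MACF1, beside 0.78 over all tested windows. Because the genes were picked from results of this same contrast, nothing is read from these counts.

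The first called DST window, chr6:56330001-56340000, lies about 480 kb from the 5′ end and held 1346, 296 and 352 events in QKI-5 iCLIP, against 6, 0 and 3 in control. It averaged 148 ± 32.7 EPM in QKI-5 iCLIP and 48.0 ± 50.5 EPM in control. Its log2 fold change was 2.36 (SE 0.64) with an edgeR adjusted p of 0.040, and it stayed called in 5 of 12 alternatives, over which the adjusted p ran from 0.0045 to 0.566. In the 3 fits without a QKI-5 iCLIP replicate, the filter left 892 to 951 windows of the genome, so their adjusted p is not comparable. In the 3 without a control replicate it left 52140 to 54850, so the same holds for these. Among fits with all libraries, only the DESeq2 Wald test kept the call. The 0.566 came from the edgeR fit with a term for replicate number, which called 0 windows anywhere in the genome. The log2 fold change was 1.58 without QKI-5 iCLIP replicate 1 and 2.18 without control replicate 2, and neither of these fits called the window.

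The second, chr6:56550001-56560000, held 292, 85 and 96 events in QKI-5 iCLIP, 37.7 ± 3.84 EPM, against 0 in all 3 controls. Against 3 pooled control events it was at least 2.68-fold higher, and its fitted fold change is no bound. Its edgeR adjusted p was 0.042, and it stayed called in 1 of 8 alternatives, over which the adjusted p ran from 0.046 to 0.566. The 0.566 again came from the edgeR fit with a term for replicate number, which called 0 windows of the genome. It was not called without any one control replicate (edgeR adjusted p 0.054, 0.134 and 0.054). Those fits tested 52140, 54520 and 54850 windows in place of 29960, so these values are not comparable with that of the main fit.

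**Figure D3:**
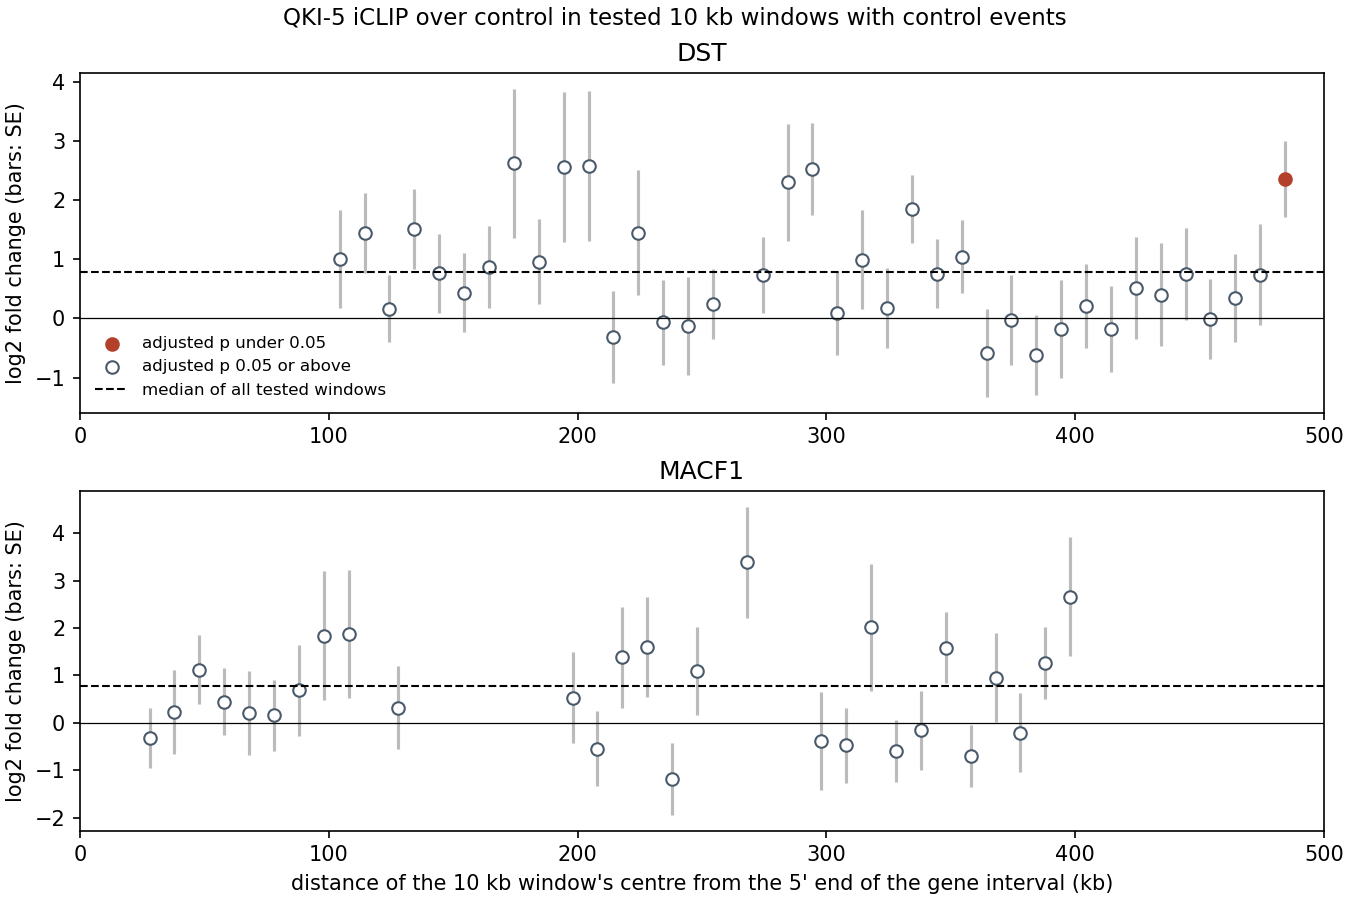
Log2 fold change of QKI-5 iCLIP over control, with its SE, for each tested 10 kb window of DST (top) and MACF1 (bottom) against the distance of its centre from the 5′ end in kb. Tested windows with no control event are left out, and the dashed line is the median of all tested windows, 0.78. The filled point is the called DST window near 480 kb, at 2.36.

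The window with the highest DST level was chr6:56480001-56490000, with 1533, 365 and 663 events in QKI-5 iCLIP, against 6, 6 and 5 in control. It averaged 203 ± 30.2 EPM in QKI-5 iCLIP and 119 ± 66.1 EPM in control, and 86 windows of the genome were higher in QKI-5 iCLIP. Its log2 fold change of 1.86 (SE 0.57) missed the threshold (edgeR adjusted p = 0.078). The third highest, chr6:56520001-56530000, averaged 74.8 ± 20.5 EPM in QKI-5 iCLIP, with 3, 0 and 1 control events (log2 fold change 2.54, edgeR adjusted p = 0.075). The lowest DST windows, chr6:56770001-56780000 and chr6:56760001-56770000, averaged 3.75 and 3.87 EPM in QKI-5 iCLIP and had no control event. Both lie in the sparse 5′ stretch.

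In MACF1 the highest windows were chr1:39890001-39900000 with 48.4 ± 8.22 EPM in QKI-5 iCLIP and 26.5 ± 6.24 EPM in control, chr1:39590001-39600000 with 42.3 ± 3.66 EPM in QKI-5 iCLIP and 32.03 ± 33.6 EPM in control, and chr1:39930001-39940000 with 38.3 ± 6.94 EPM in QKI-5 iCLIP and 17.7 ± 15.53 EPM in control. Their log2 fold changes were 1.59, 1.12 and 1.26, and none passed the edgeR threshold. The lowest, chr1:39550001-39560000 and chr1:39560001-39570000, averaged 0.921 and 1.27 EPM in QKI-5 iCLIP. The median window of the genome that had any event held 0.793 EPM in QKI-5 iCLIP, against a median of 22.9 EPM in DST windows and 13.95 EPM in MACF1 windows. Of the DST windows, 37 of 48 lay above the 90th percentile of all windows and 8 above the 99th, and of the MACF1 windows 17 of 40 and 0. These ranks use QKI-5 iCLIP levels alone, and both genes were picked with earlier results of these libraries in view. Of the 174732 windows ranked, 118871 had no control event, and control levels were not ranked.

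Single sites were read by summing the events within 15 nt of a base, and the 8 strongest sites of each gene, ranked by the geometric mean over the QKI-5 iCLIP libraries, are described. Because the sites were chosen where QKI-5 iCLIP was high, the choice favours QKI-5 iCLIP in every fold given for them. No site was tested against control. DST site 1, centred on chr6:56486518, lies 332.9 kb from the 5′ end and held 250, 42 and 97 events in QKI-5 iCLIP, against 0 in every control. Its level was 34.3, 19.6 and 33.6 EPM in QKI-5 iCLIP, and it ranked 1, 3 and 1 among DST sites in replicates 1 to 3. Against 3 pooled control events it was at least 2.20-fold higher. The events fell on 28, 12 and 21 separate bases, so no single base made the site.

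Within DST site 1 the same bases stood out in every QKI-5 iCLIP library. The base at 56486533, 15 nt upstream of the centre, held 67, 11 and 12 events in replicates 1 to 3. The base at 56486505, 13 nt downstream, held 37, 6 and 15. No control had an event at either.

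DST sites 2 and 3 lie 168 nt apart near the 3′ end, at chr6:56331290 and chr6:56331122, 488.1 and 488.3 kb from the 5′ end. Site 2 held 160, 47 and 28 events in QKI-5 iCLIP and site 3 held 206, 17 and 51, against 0 in control at both. They were at least 1.33-fold and 1.55-fold higher than 3 pooled control events. Both lie within the first called window. Site 4, at chr6:56325380 and 2.60 kb from the 3′ end of the interval, held 122, 48 and 27 events in QKI-5 iCLIP, against 0, 0 and 1 in control. Its ratio over pooled events was 3.35, with an interval of 0.594 to 133.

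Site 5, at chr6:56488316, held 154, 19 and 35 events in QKI-5 iCLIP, against 0, 0 and 4 in control. All 4 control events stood on one base of control replicate 3. The ratio over pooled events at site 5 was 0.883, with an interval of 0.340 to 3.27. Site 8, at chr6:56488182 and 134 nt away, held 33, 24 and 30 events in QKI-5 iCLIP and 0 in control. With site 1, which lies 1664 nt from site 8, these make the cluster at 331 to 333 kb. Sites 6 (chr6:56526275; 81, 41 and 17 events in QKI-5 iCLIP) and 7 (chr6:56643185; 84, 33 and 13 events) stood alone, at 293.2 and 176.2 kb, with 0 control events. Over pooled QKI-5 iCLIP libraries, sites 6, 7 and 8 held 11.3, 10.6 and 7.06 EPM. These lie below the 14.3 EPM that 0 pooled control events allow, so no fold is given. The geometric mean fell to 8.08 EPM at site 8, the last named, and was 7.30 EPM at the next.

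MACF1 sites were weaker. Site 1, at chr1:39813504 and 266.5 kb from the 5′ end, held 68, 7 and 19 events in QKI-5 iCLIP, a geometric mean of 5.85 EPM, and site 2, 567 nt away at chr1:39814071, held 47, 4 and 19. Sites 3 and 4, at chr1:39890988 and chr1:39891285, lie 297 nt apart at 344.0 and 344.3 kb and held 62, 5 and 10 events and 26, 8 and 13 events in QKI-5 iCLIP. Site 1 lies in the 1 kb bin from 266 kb, site 2 in the next, and sites 3 and 4 in the bin from 344 kb, and most of their events came from replicate 1, the deepest library.

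MACF1 sites 5, 6 and 7, at chr1:39594487, chr1:39590197 and chr1:39600597, lie between 43.2 and 53.6 kb. Site 5 held 34, 8 and 8 events in QKI-5 iCLIP, site 6 held 29, 4 and 17, and site 7 held 26, 14 and 5. Site 8, at chr1:39674092 and 127.1 kb, held 24, 12 and 6 events, a geometric mean of 3.37 EPM, and the next, not named, had 2.87 EPM. All 8 MACF1 sites had 0 control events, which allows up to 14.3 EPM over pooled controls. That limit exceeds every MACF1 site level, so no fold is given. At MACF1 site 1 the base 39813510 held 28, 0 and 8 events, so its strongest base was not shared by replicate 2. Site 6 had its strongest base, 39590204, in all 3, with 6, 2 and 10 events.

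**Figure D4:**
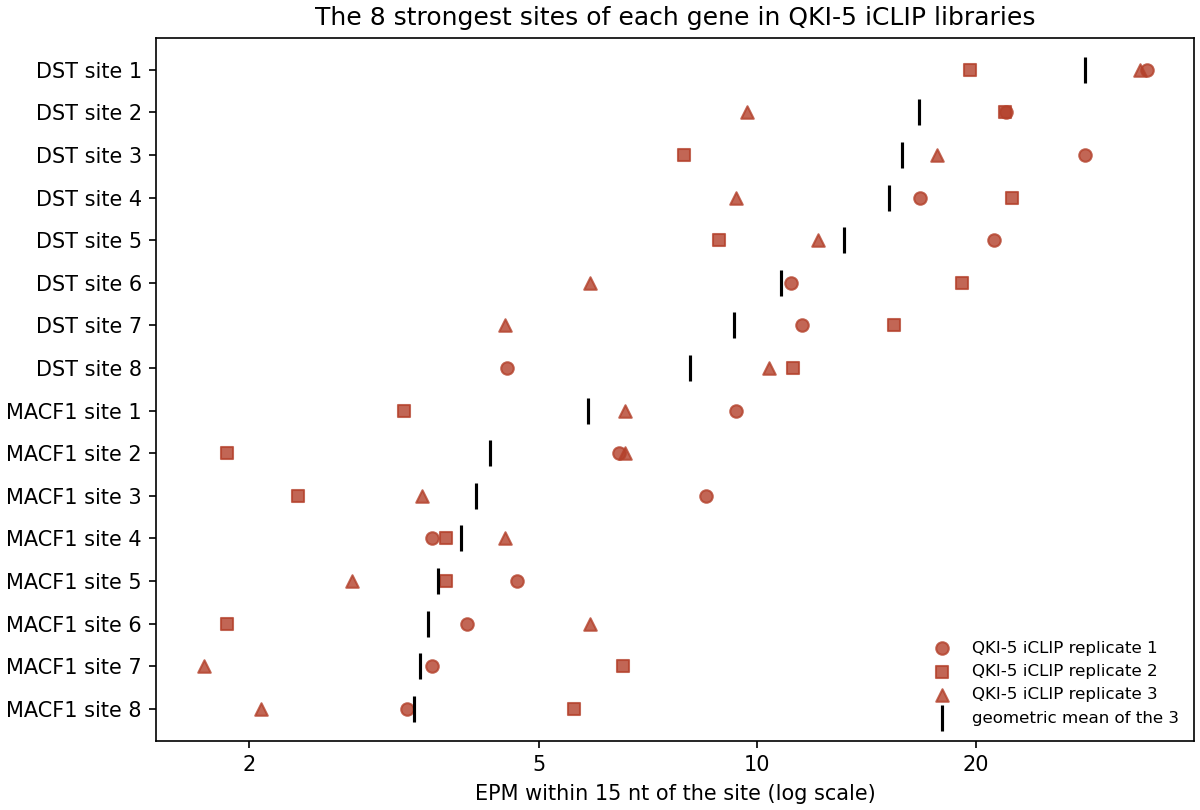
EPM within 15 nt of the 8 named sites of DST and of MACF1 on a log axis, with a symbol for each QKI-5 iCLIP replicate and a tick for their geometric mean; sites run down the page by rank within each gene. DST site 1 has the highest geometric mean, 28.3 EPM, and every DST geometric mean exceeds that of MACF1 site 1, 5.85 EPM.

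**Figure D5:**
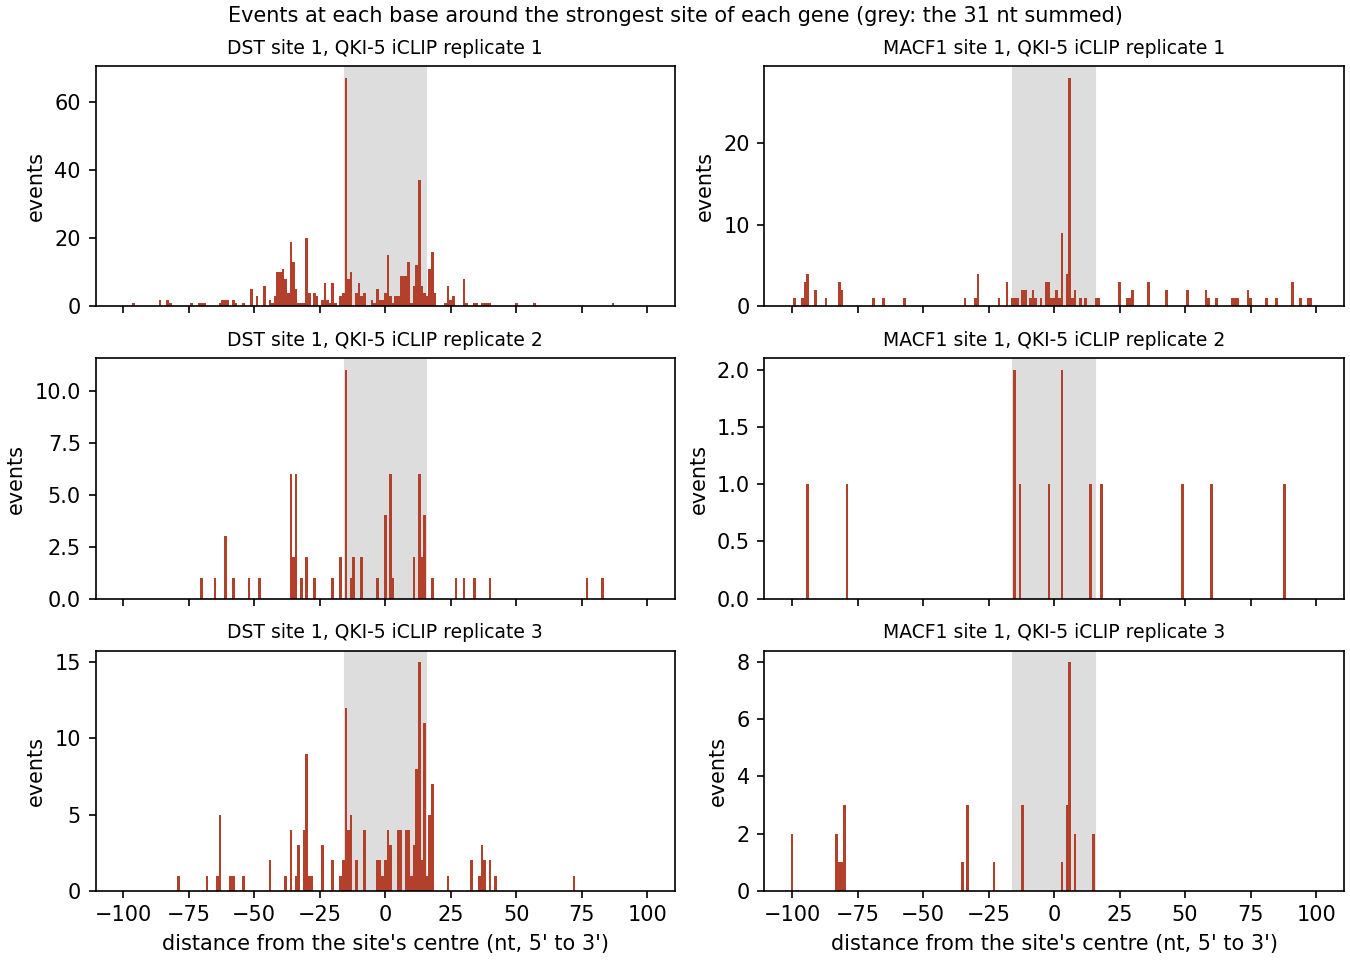
Events at each base within 100 nt of site 1 of DST (left) and MACF1 (right) in QKI-5 iCLIP replicates 1 to 3 from top to bottom, with the 31 nt summed in grey; each panel has its own vertical scale. The DST base 15 nt upstream of the centre holds 67, 11 and 12 events, and the MACF1 base 6 nt downstream holds 28, 0 and 8.

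To measure sites without the library that chose them, 8 sites were picked in the other QKI-5 iCLIP libraries and read in the remaining one. Controls were read in the 8 sites picked from all 3 QKI-5 iCLIP libraries. In DST such sets of 248 bases held 7.36%, 6.15% and 5.86% of the gene's events in QKI-5 iCLIP replicates 1 to 3, against 0%, 0% and 13.2% in control. The control value of 13.2% is 5 of 38 events in replicate 3, of which 4 stand on the single base at site 5. The means were 6.45 ± 0.799% in QKI-5 iCLIP and 4.39 ± 7.60% in control. The difference of 2.07 percentage points was 6.45 without control replicate 3, -0.125 without control replicate 1 or 2, and 0.716 and 0.801 without QKI-5 iCLIP replicate 1 or 3. Its size and sign thus rested on single libraries, and since the sites were picked in QKI-5 iCLIP it was not tested.

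In MACF1 the sites picked in this way held 5.29%, 1.99% and 4.06% of events in QKI-5 iCLIP. The controls, read in the sites from all 3 QKI-5 iCLIP libraries, held 0 of 96, 0 of 27 and 0 of 17 events. These allow up to 3.13%, 11.1% and 17.6%. For control replicates 2 and 3 these limits lie above every QKI-5 iCLIP value, so their 0 cannot be told from such shares. The QKI-5 iCLIP mean was 3.78 ± 1.67% (SD, n = 3), and the difference was 1.68 percentage points without QKI-5 iCLIP replicate 1 and 2.51 without replicate 3. The groups were not tested against each other.

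Control events also lay near QKI-5 iCLIP events. Of the DST control events, 72.8%, 74.5% and 84.2% in replicates 1 to 3 fell within 15 nt of a base hit in QKI-5 iCLIP, where such bases make up 35.9% of the interval. For MACF1 the shares were 57.3%, 70.4% and 64.7%, over 24.5% of the interval. What these control events stem from was not tested.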

How the data were processed

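Each of 6 libraries has 1 deposited list of crosslink positions, by strand, and the authors' values are whole, unnormalized counts of crosslink events. The submitters' processing notes name cutadapt, Bowtie and hg19. No versions of these are stated, nor is the merging of PCR copies or the placing of reads with several alignments. Events were summed over the DST and MACF1 intervals, 1 kb bins and 31 nt sites with Python 3.11.15 (numpy 2.4.6, pandas 2.3.3, scipy 1.17.1), and scaled to EPM. Counts in strand-specific 10 kb windows were tested with edgeR 4.0.16 (R 4.3.3, limma 3.58.1; TMM factors, filterByExpr, group as the only term, Benjamini-Hochberg over 29960 windows), with DESeq2 1.42.0 as an alternative. The SE of a log2 fold change is its size divided by the square root of F. The scripts were tested on simulated data.

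Named sites are the 8 per gene with the highest geometric mean EPM, at least 3 events in each QKI-5 iCLIP library and 100 nt between them. Named windows are the 3 highest and 2 lowest of each gene and those called. The genes, stretches and measures were chosen with earlier results of these data known. The edgeR and DESeq2 p-values set a difference between groups against the spread between these libraries. The permutation p-values set it against other splits of the same libraries. Neither covers variation between cultures if the replicates are technical. No hg19 genome or annotation was used here, so exons, introns, UTRs, binding motifs and cell type markers were not analysed.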

Additional observations from a re-analysis of the deposited data

Results flagged for a closer look

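The 10 kb downstream of the DST interval, outside the counted region, held 118, 39 and 25 events in QKI-5 iCLIP replicates 1 to 3, against 0 in each control. This is 16.2, 18.2 and 8.65 EPM in QKI-5 iCLIP, and 14.8 EPM over pooled QKI-5 iCLIP libraries, just above the 14.3 EPM that 0 pooled control events allow. It was singled out because the signal lies in data that no count of DST or MACF1 above used, although the genome-wide windows include this stretch. The 10 kb upstream of DST held 0, 1 and 2 events in QKI-5 iCLIP and 0 in control. The 10 kb downstream of MACF1 held 4, 4 and 2 events in QKI-5 iCLIP and 0 in control. Whether the events downstream of DST belong to DST transcripts was not tested.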

How the results depend on the processing

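The control libraries, with 266 events in DST and 140 in MACF1, limit every comparison, and 2 of the 3 hold under 60 events in either gene. The number of DST windows called higher was 2, beside 226 of 29960 tested windows of the genome. It was 0 with DESeq2 size factors in edgeR (genome 85 of 29960) or library totals (23 of 29960). It was also 0 with distinct positions (genome 26 of 20702) or 20 kb windows (76 of 26373). It was 1 with no filter on low counts (genome 159 of 174732) and 3 with the DESeq2 Wald test (431 of 29960). In these edgeR alternatives fewer windows were thus called over the whole genome as well. Leaving out 1 library gave 0 to 4, beside 28 to 831 windows of the genome. The 4 came without control replicate 1, the fit with 831 in the genome. Without a QKI-5 iCLIP replicate only 3 to 5 DST windows passed the filter, so those counts are not comparable. Without a control replicate 44 to 45 passed, in place of 39, so those counts also rest on another set of windows. The cause of these changes was not tested. No window of MACF1 was called under any alternative, and none was tested without any one QKI-5 iCLIP replicate.

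The log2 ratio of MACF1 changed sign to -0.12 on distinct positions and to -0.043 without control replicate 3, with a range of -0.043 to 0.098 over single libraries left out. The log2 ratio of DST stayed between 0.36 and 0.53 when 1 library was left out, and was 0.12 on distinct positions. The difference between groups in the log2 density ratio of DST over MACF1 was 0.22 on distinct positions. It ran from 0.31 to 0.50 when 1 library was left out. The share of DST events in the 5′ 50% was 33.5% on distinct positions. The share in the 5% of bins with most events was 29.01% on distinct positions, 39.7% with 500 nt bins and 34.5% with 2 kb bins. The difference in the held-out site share of DST turned to -0.125 percentage points without control replicate 1 or without control replicate 2, and ranged from -0.125 to 6.45 when 1 library was left out; these alternatives were chosen after seeing the data. Of the 8 named DST sites, 5 were found again with 50 nt summed on each side, and of the MACF1 sites 0 had at least 10 events in each QKI-5 iCLIP library.

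The labels do not pair same-numbered libraries. The correlations of their deviations were -0.003, 0.10 and 0.07, beside at most 0.058, 0.0077 and -0.0063 with other numbers, so replicates 2 and 3 but not 1 correlated best with their own number, and they were not treated as pairs. With a replicate block the log2 ratio was 0.43 for DST and 0.04 for MACF1, and the log2 density ratio differed by 0.39 between groups. The blocked edgeR fit called 0 DST windows, but also 0 higher and 0 lower of the 29960 tested windows of the genome.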
